A study of Homo sapiens with 6 samples.

Results

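The S100 genes and the kallikrein gene KLK6 were followed in HepG2 cells, a human hepatoblastoma line with hepatocyte features, under an siRNA against the nuclear receptor HNF4A and under TGF-beta. The group held 10 genes of 19775 with a probe set annotated to a single symbol, namely S100A2, S100A3, S100A6, S100A10, S100A11, S100A13, S100A14, S100A16, S100P and KLK6. Where a gene had several probe sets, the one with the highest mean over the 6 arrays was used. The genes were chosen on results of these same arrays, so their levels and differences are given as descriptions, with no test. Cells transfected with an HNF4A siRNA (siHNF4a) were compared with cells transfected with a control siRNA (siControl). Both arms received TGF-beta at 3 ng/ml for 0, 1.5 or 24 h, which makes 6 groups with 1 Affymetrix array each and no replicate. An array at 24 h without the cytokine was not used here, so a difference between 24 h and 0 h holds both TGF-beta and time in culture, which cannot be told apart. In bulk RNA, a higher level per cell and a larger share of cells with the transcript cannot be told apart either.

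S100 proteins are small calcium-binding proteins with EF-hand loops, which change shape when they bind calcium and then attach to target proteins such as annexins and cytoskeletal proteins. Most of their genes lie next to each other on chromosome 1, in and beside a region rich in genes of skin differentiation, and several are known from epithelial tumours. KLK6 encodes a secreted trypsin-like serine protease of the kallikrein family, whose genes lie in a row on chromosome 19. TGF-beta signals through receptor kinases and Smad transcription factors, which often act beside AP-1 factors on the same promoters.

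The deposited values were MAS5 signals, scaled intensities on a linear scale, with a median of 12.4 to 13.3 per array. The median of all signals, 12.9, served as the floor: lower signals were set to it before log2 was taken. All 10 genes lay above it on every array. The siControl 0 h array stood apart in 1 ribosomal RNA control probe set (8600, against 69.8 to 736.5 on the other 5 arrays), so differences from 0 h are also given against 1.5 h where that matters. Hepatocyte markers were high: ALB read 8099 to 9727, AFP 7730 to 9414 and APOB 6265 to 7812. Some of the 8 markers differed between the groups, as TTR fell at 24 h (-0.54, limma adjusted p = 0.0185) and with the siRNA (-0.52, 0.0114), FGB fell at 24 h (-0.65, 0.00509) and rose with the siRNA (0.74, 0.00089), and SERPINA1 rose at 24 h (0.34, 0.0184). Their part in the members' differences was not tested. TAGLN, a known TGF-beta target, rose at 24 h (2.15 ± 0.15 on the log2 scale, limma adjusted p = 1.03e-06). It was 1 of 4 genes that rose at 24 h among 5 listed TGF-beta response genes with a probe set, beside 7.22% of all genes tested. The other, SMAD7, did not pass at 24 h (-0.38, limma adjusted p = 0.118) but rose at 1.5 h (1.165, 0.00266). HNF4A itself was not analysed here, which leaves the siRNA labels without a check on their target.

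All 10 genes were found in RefSeq's promoter table (GRCh38.p14), with 14 start sites among them. The 250 bases before a start are shown for the 3 genes with the largest differences at 24 h. Capitals mark an AP-1 site (TGANTCA) in S100A2 and S100A3 and a CAGA-type Smad element (CAGACA or its complement TGTCTG) in KLK6. The stretches lie at chr1:153565845-153566094 for the upstream S100A2 start, chr1:153549259-153549508 for S100A3 and chr19:50969592-50969841 for KLK6, all on the minus strand, and are written 5' to 3' along the gene.
S100A2: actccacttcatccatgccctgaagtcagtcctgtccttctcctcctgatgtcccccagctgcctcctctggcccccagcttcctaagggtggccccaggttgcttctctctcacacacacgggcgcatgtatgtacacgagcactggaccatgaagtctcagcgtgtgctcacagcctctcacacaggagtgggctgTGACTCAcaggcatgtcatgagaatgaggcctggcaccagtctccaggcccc
S100A3: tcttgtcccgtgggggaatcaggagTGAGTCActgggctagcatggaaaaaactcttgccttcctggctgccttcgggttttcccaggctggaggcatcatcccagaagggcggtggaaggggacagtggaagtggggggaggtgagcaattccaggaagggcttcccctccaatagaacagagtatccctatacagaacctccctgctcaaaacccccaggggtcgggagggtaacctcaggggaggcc
KLK6: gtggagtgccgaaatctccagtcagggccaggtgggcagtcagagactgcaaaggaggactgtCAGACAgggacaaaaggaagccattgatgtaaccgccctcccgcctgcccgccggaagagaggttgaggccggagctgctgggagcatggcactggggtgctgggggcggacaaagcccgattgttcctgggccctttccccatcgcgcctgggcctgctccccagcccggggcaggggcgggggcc

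The AP-1 letters began 52 bases before the S100A2 start and 225 bases before the S100A3 start, and no other member held them in this window. Both strands were searched. Among the 35116 promoter windows searched, 6.57% held the AP-1 letters. CAGACA was found in 7 of the 14 member windows, against 13.6% of all windows, and these 7 belonged to 6 genes: S100A2 (its other start), S100A10, S100A11, S100A13, S100A16 and KLK6. In KLK6 it began 187 bases before the start and in S100A11 47 bases before it. An HNF4-type element (CAAAGTCCA) was in no member window and in 0.325% of all windows. A match describes letters, not binding, and no match says only that these letters are not in the window.

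At 24 h of TGF-beta, KLK6, S100A3 and S100A2 showed the largest differences of the 10 genes. KLK6 read 18.2, 30.3 and 186.8 at 0, 1.5 and 24 h in siHNF4a cells, against 19.2, 23.2 and 112.3 in siControl cells. Its 24 h arrays stood above all 4 earlier arrays, 10.3-fold over 0 h in siHNF4a and 5.85-fold in siControl. The mean difference over both arms was 2.95 ± 0.30 (log2, limma's standard error), or 2.32 with a pseudocount in place of the floor, and its 0 h signals lay near the floor. S100A3, a cysteine-rich protein best known from the hair cuticle, read 59.3, 88.0 and 497.2 in siHNF4a, against 69.6, 71.0 and 450.6 in siControl. That is 8.39-fold and 6.48-fold over 0 h, again with both 24 h arrays far above the other 4, and a mean of 2.88 ± 0.21. S100A2, a mainly nuclear S100 protein of epithelial cells, read 61.2, 71.6 and 238.1 in siHNF4a, against 37.1, 48.3 and 129.8 in siControl. It was 3.89-fold and 3.50-fold higher at 24 h than at 0 h, and at each time it was higher in siHNF4a.

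**Figure D1:**
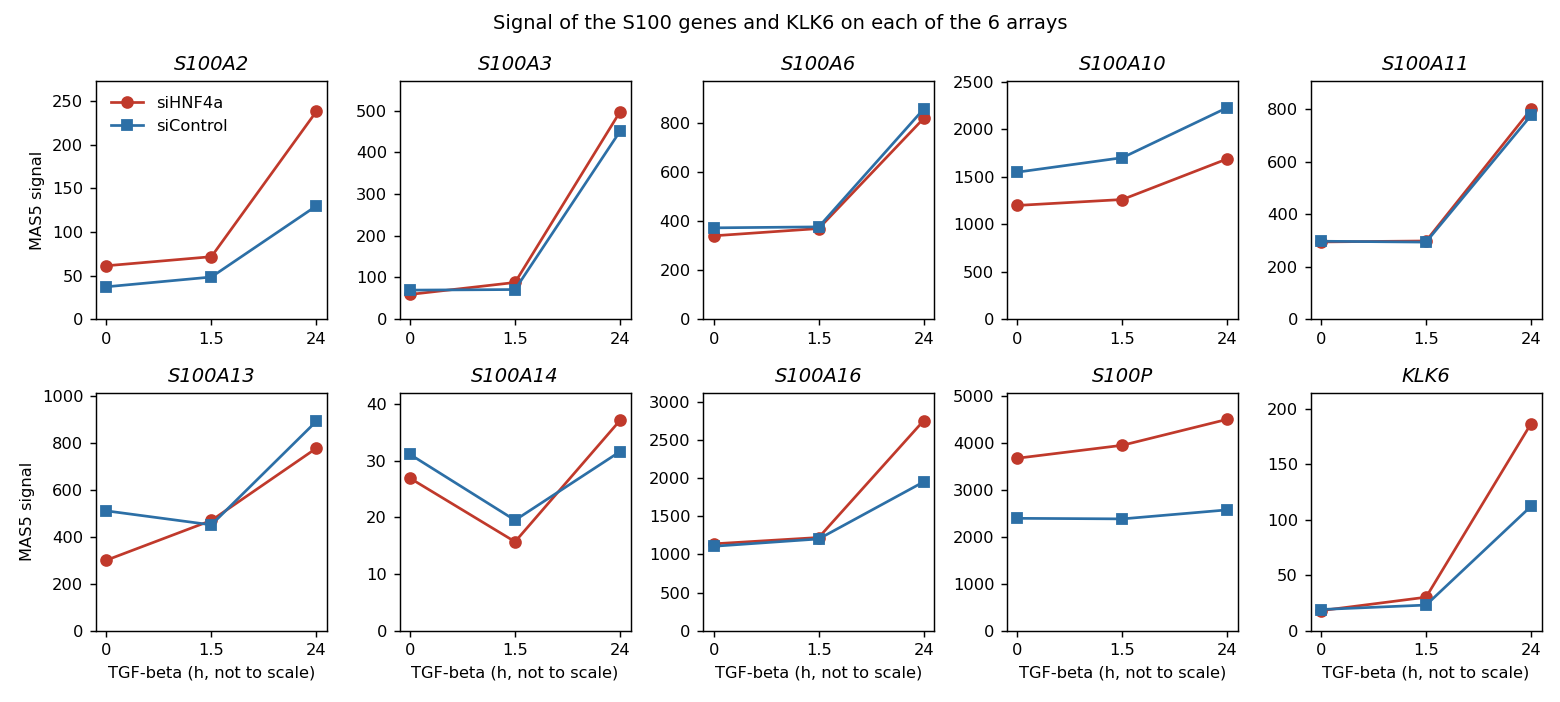
MAS5 signal (linear, from 0) of each gene at 0, 1.5 and 24 h of TGF-beta, 1 array per point, siHNF4a as red circles and siControl as blue squares. KLK6 reached 186.8 and 112.3 at 24 h and S100A3 497.2 and 450.6, while S100P was separated by the siRNA at every time and little by time.

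S100A6, S100A11, S100A13 and S100A16 formed a second tier, with mean differences at 24 h of 1.41 for S100A11, 1.24 for S100A6, 1.09 for S100A13 and just under that for S100A16. S100A11, which partners annexin A1, read 294.4, 298.1 and 800.0 in siHNF4a, against 297.1, 293.7 and 776.7 in siControl. The arms were nearly alike at every time, and the 24 h arrays were 2.72-fold and 2.61-fold above 0 h. RefSeq lists 10 pseudogenes of S100A11, and probe matches to them were not checked. S100A6, also called calcyclin, read 339.1, 368.7 and 816.9 in siHNF4a, against 371.5, 375.4 and 855.0 in siControl, so it too had the same course in both arms (2.41-fold and 2.30-fold). S100A16, a widely expressed S100 protein, read 1138.3, 1221.2 and 2751.6 in siHNF4a, against 1106.6, 1202.4 and 1949.9 in siControl. Its arms were alike at 0 and 1.5 h and parted at 24 h, with 2.42-fold over 0 h in siHNF4a and 1.76-fold in siControl.

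S100A13, which takes part in the export of the growth factor FGF1, read 300.2, 469.2 and 776.3 in siHNF4a, against 509.9, 450.5 and 890.9 in siControl. The siHNF4a 0 h array was the lowest of its 6, and the 24 h arrays were the highest. The 24 h difference was therefore larger against 0 h in siHNF4a (1.37, log2) than against 1.5 h (0.73), while siControl had 0.81 and 0.98. A second S100A13 probe set read only 10.9 to 22.2 over the arrays, near the floor, and a second S100A6 probe set was at or under the floor on all 6. Averaged over probe sets, the 24 h differences were 0.55 for S100A13 and 0.62 for S100A6, in place of 1.09 and 1.24.

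S100A10, S100A14 and S100P differed least at 24 h. S100A10, the annexin A2 partner that does not bind calcium, read 1197.3, 1259.7 and 1688.0 in siHNF4a, against 1547.8, 1700.1 and 2227.7 in siControl. Its 24 h arrays were 1.41-fold and 1.44-fold above 0 h, a mean of 0.51 ± 0.11. A dimmer probe set of S100A10 read 24.3, 34.7 and 29.1 in siHNF4a and 24.2, 27.7 and 32.2 in siControl. S100P, first described in placenta, read 3669.8, 3945.0 and 4497.3 in siHNF4a, against 2391.5, 2379.6 and 2571.3 in siControl, only 1.23-fold and 1.08-fold over 0 h. S100A14, a mainly epithelial S100 protein, read close to the floor, at 26.9, 15.7 and 37.1 in siHNF4a and 31.1, 19.5 and 31.6 in siControl. Both of its 1.5 h arrays were the lowest, and its 24 h mean difference of 0.24 was smaller than its standard error of 0.32.

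At 2-fold or more above 0 h stood 7 of the 10 genes in siHNF4a (S100A2, S100A3, S100A6, S100A11, S100A13, S100A16 and KLK6) and 5 in siControl (S100A2, S100A3, S100A6, S100A11 and KLK6). Over all 11921 genes tested, 4.5% stood that high in siHNF4a and 3.11% in siControl. Since the members were selected on these arrays, nothing is read from that contrast. The median of the 10 was 1.32 in siHNF4a and 1.01 in siControl, beside -0.05 and -0.01 over all genes tested. Against the 1.5 h arrays the counts were 7 and 5 as well, 6 and 5 of them the same genes. In siHNF4a S100A13 dropped out (0.73) and S100A14 came in (1.24), whose 1.5 h signal of 15.7 lay near the floor. These counts use the same 24 h arrays, and the share of all genes tested was not counted for them.

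**Figure D2:**
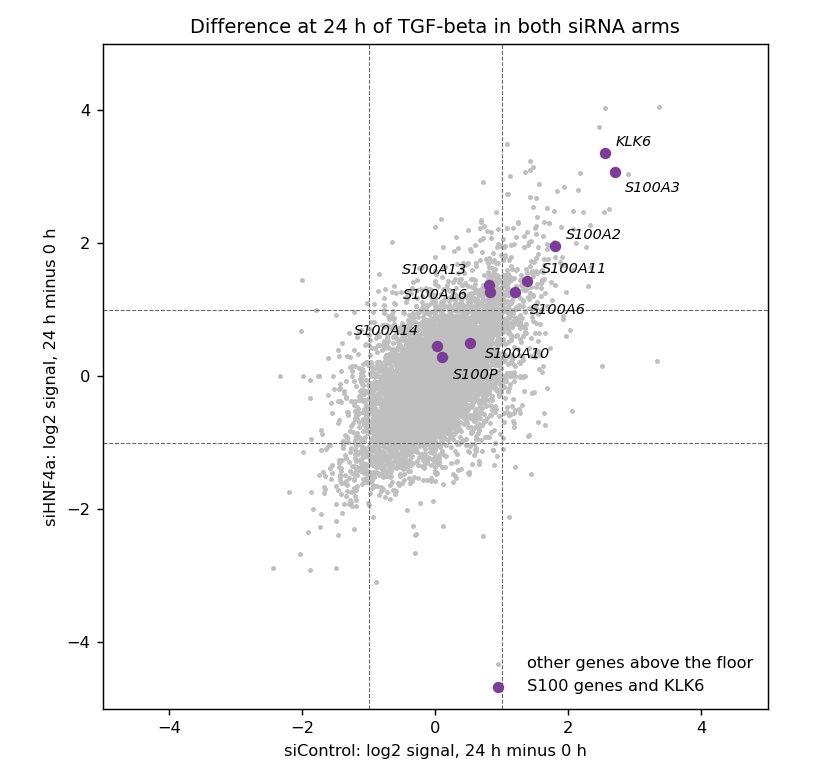
Log2 difference between 24 h and 0 h in siHNF4a (vertical) and siControl (horizontal), 1 point per gene above the floor, the 10 genes in purple. Dashed lines mark a 2-fold difference. KLK6 lay at 3.36 and 2.55, S100A3 at 3.07 and 2.70, and S100P at 0.29 and 0.10.

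How the 24 h difference compared between the arms depended on the earlier array it was set against. Against 0 h it was larger in siHNF4a for 9 of the 10 genes, and against 1.5 h for 7, with 4 genes turning sign. The same counts were not made over all genes tested, so nothing is read from them about these 10 genes. KLK6, S100A16 and S100A14 had a larger difference in siHNF4a both ways: the gap on the log2 scale was 0.81 against 0 h and 0.35 against 1.5 h for KLK6, 0.46 and 0.48 for S100A16, and 0.44 and 0.55 for S100A14. S100A13 had a gap of 0.57 against 0 h and -0.26 against 1.5 h, and S100A3 had 0.37 and -0.17. S100A6 (0.06 and -0.04) and S100A10 (-0.03 and 0.03) also turned sign, with values close to 0. S100A2 had 0.15 and 0.31, S100P 0.19 and 0.08, and S100A11 0.06 and 0.02. With 4 arrays behind each gap and no replicate, it was not tested, and S100A13's gap was -0.17 when its probe sets were averaged.

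The siRNA comparison separated the genes differently. Of the 10 genes, 5 had the same sign at all 3 times. The share of all genes tested that did so was not counted, so nothing is read from this count. S100P, S100A2 and S100A16 were higher and S100A10 and S100A6 lower in siHNF4a. The difference was close to 0 for S100A16 at 0 and 1.5 h (0.04 and 0.02) and for S100A6 throughout (-0.13, -0.03 and -0.07). S100P was 1.53-fold, 1.66-fold and 1.75-fold higher in siHNF4a than in siControl at 0, 1.5 and 24 h. Its mean difference was 0.72 ± 0.08 on the log2 scale, with signals of 3669.8 to 4497.3 in siHNF4a and 2379.6 to 2571.3 in siControl. S100A2 was 1.65-fold, 1.48-fold and 1.83-fold higher, a mean of 0.72 ± 0.19. S100A10 stood at 0.774, 0.741 and 0.758 of its siControl signal, a mean of -0.40 ± 0.09. Its dimmer probe set did not show this at each time, with 24.3, 34.7 and 29.1 in siHNF4a against 24.2, 27.7 and 32.2 in siControl. Averaged over probe sets, the S100A10 mean was -0.17. S100A6 (-0.07 ± 0.12), S100A11 (0.02 ± 0.12) and S100A3 (0.07 ± 0.17) had mean differences within their standard errors.

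KLK6 and S100A16 differed between the siRNAs mainly at 24 h. KLK6 stood at 0.948 of its siControl signal at 0 h, 1.31-fold at 1.5 h and 1.66-fold at 24 h. S100A16 stood at 1.03-fold, 1.02-fold and 1.41-fold. S100A13 was lower in siHNF4a at 0 h, at 0.589 of its siControl signal, and at 1.04-fold and 0.871-fold at the later times. S100A14 stood at 0.865, 0.805 and 1.17. None of the 10 genes reached a 2-fold difference between the siRNAs at any time, against 3.1% of all genes tested at 0 h, 4.81% at 1.5 h and 5.28% at 24 h. The siHNF4a cells at 24 h, set against siControl cells at 0 h, read 9.73-fold higher for KLK6, 7.14-fold for S100A3 and 6.42-fold for S100A2. The ratio was 2.69 for S100A11, 2.49 for S100A16, 2.2 for S100A6, 1.88 for S100P, 1.52 for S100A13 and 1.19 for S100A14. For S100A10 the same ratio was 1.09.

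**Figure D3:**
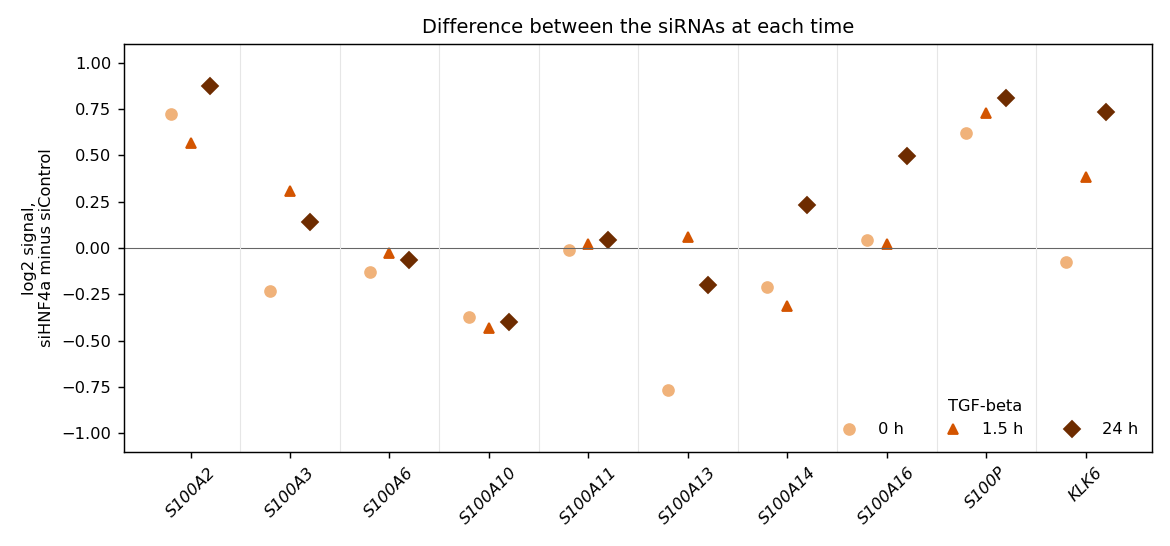
Log2 signal in siHNF4a minus siControl at 0, 1.5 and 24 h of TGF-beta (light circles, triangles, dark diamonds), 1 array on each side of a difference. S100P and S100A2 lay above 0 and S100A10 below 0 at all 3 times. KLK6 lay at -0.08, 0.38 and 0.73 at the 3 times.

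At 1.5 h KLK6 and S100A13 were higher in siHNF4a and S100A14 lower in both arms, while most other members differed little from 0 h. The differences from 0 h ran from -0.78 (S100A14) to 0.73 (KLK6) in siHNF4a and from -0.67 (S100A14) to 0.38 (S100A2) in siControl. No member was at 2-fold in either arm, as were 2% of all genes tested in siHNF4a and 1.69% in siControl. S100A14 read lower at 1.5 h in both arms, at 0.584 of its 0 h signal in siHNF4a and 0.627 in siControl. S100A3 was 1.48-fold higher at 1.5 h in siHNF4a and 1.02-fold in siControl, and KLK6 1.66-fold and 1.21-fold. S100A13 was 1.56-fold higher in siHNF4a and stood at 0.883 of its 0 h signal in siControl. In siHNF4a KLK6 (0.73) and S100A13 (0.64) lay at or above 0.64, the upper end of the central range of all genes tested. S100A6, S100A10, S100A11, S100A16 and S100P differed from 0 h by at most 0.14 (log2) in either arm.

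Of the 16 S100A genes in the chromosome 1 row, 8 are members and 2 others lay above the floor. S100A4, which binds non-muscle myosin and marks fibroblast-like and motile cells, read 191.9, 177.7 and 552.2 in siHNF4a, against 132.0, 97.1 and 323.9 in siControl. It rose at 24 h by 1.41 ± 0.18 (limma adjusted p = 0.000119), and it rose with siHNF4a by 0.73 ± 0.15 (adjusted p = 0.00674). The siRNA call was lost without the 24 h pair of arrays (0.71), without the filter on mean signal and without the intensity trend. The 24 h call was lost without the filter. S100A1, a calcium sensor best known from muscle, read 148.3, 116.1 and 113.3 in siHNF4a and 156.0, 183.3 and 194.0 in siControl. Neither of its mean differences passed, -0.04 ± 0.22 at 24 h and -0.50 ± 0.18 for the siRNA (adjusted p = 0.10), though the siRNA value was -0.72 and passed without the siControl 0 h array. Its annotated gene overlaps S100A13 on the opposite strand, and the neighbours had unlike 24 h courses. Over all genes tested, 7.22% rose and 7.82% fell at 24 h, and 3.9% rose and 4.16% fell with the siRNA.

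**Figure D4:**
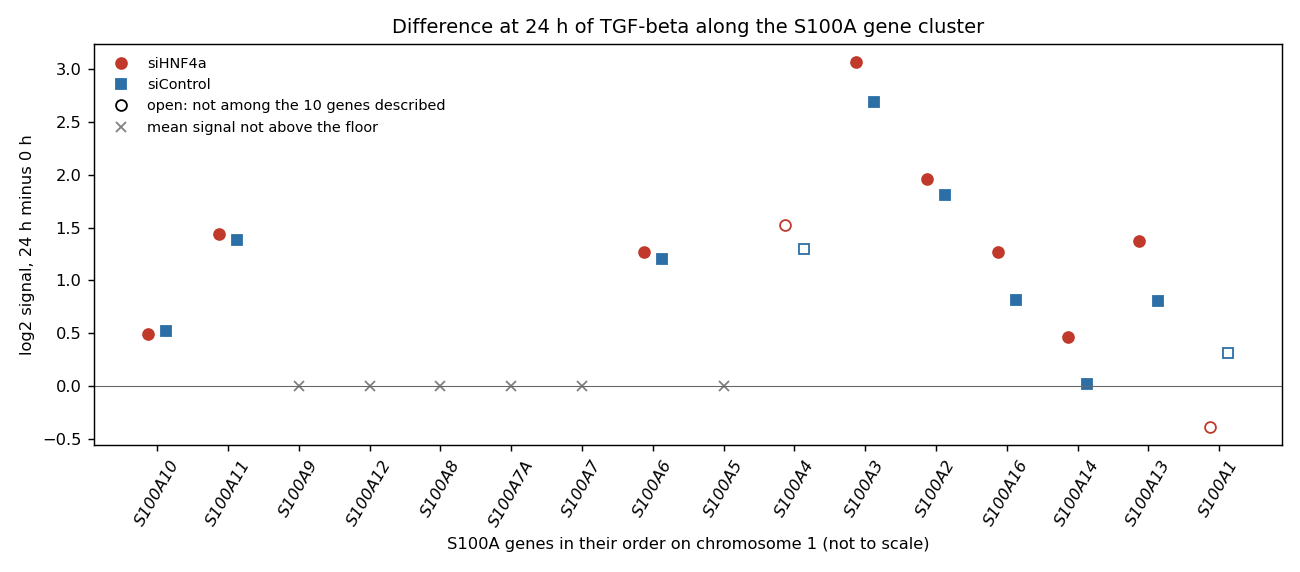
Log2 difference between 24 h and 0 h for the S100A genes in their order on chromosome 1, siHNF4a as red circles left of siControl as blue squares, with open symbols for S100A4 and S100A1, which are not among the 10 genes, and crosses where the mean signal was not above the floor. All 8 of the 10 genes on the chromosome and S100A4 had positive differences in both arms, small ones for S100A14 (0.46 and 0.02), and S100A1 had -0.39 and 0.32. The members were chosen on these arrays and the share of all genes tested with positive differences was not counted, so nothing is read from this count.

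Few other S100 genes were above the floor. Of 12 listed, 11 had a probe set with 1 symbol, 9 of these had no mean signal above the floor, and 7, among them S100A8 and S100A9, the calprotectin subunits of neutrophils, were at or under it on all 6 arrays. The 5 S100-fused-type genes with a probe set, including the skin barrier gene FLG, were also at or under the floor on all 6. Among keratinocyte markers KRT5, KRT14, IVL and DSG3 read 0.4 to 14.5, and the 7 markers summed to 867 to 963 in siHNF4a and 747 to 870 in siControl, almost all of it KRT10. Of the 3 blood markers with a probe set, PTPRC and MPO had no mean above the floor, while HBB read 33.9, 4.9 and 28.8 in siHNF4a, against 34.8, 3.6 and 19.8 in siControl, lowest at 1.5 h in both arms (-1.41, limma adjusted p = 0.342). The 3 summed to 21.6 to 54.7 in siHNF4a and 18.0 to 53.1 in siControl. Of 4 fibroblast markers PDGFRB alone had a mean above the floor, at 12.7 to 51.4 over the 6 arrays, and the 4 summed to 47.5 to 78.2 in siHNF4a and 49.0 to 89.1 in siControl. PECAM1, the 1 endothelial marker above the floor, rose at 24 h by 1.01 ± 0.27 (limma adjusted p = 0.0221), while VWF and CDH5 stayed at or under the floor on all 6 arrays. The 3 endothelial markers summed to 60.6 to 110.1 in siHNF4a and 51.0 to 131.3 in siControl, and the part of these blood, fibroblast and endothelial markers in the members' differences was not tested.

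Of 14 other kallikrein genes 13 had a probe set, 7 of them without a mean signal above the floor. KLK1, KLK3, KLK4, KLK5, KLK7 and KLK12 lay above it, and none of these 6 rose or fell in limma at 24 h or with the siRNA, where 0 and 0 also had an unadjusted p under 0.05, or at 1.5 h, where 1 did. With 7.22% of all genes tested rising and 7.82% falling at 24 h, a count of 0 among 6 is near the background. KLK5 and KLK7, the genes on either side of KLK6, had no course like it. KLK5 read 7.8 to 25.3 in siHNF4a, against 7.7 to 20.3 in siControl, and KLK7 read 6.3 to 20.8 in siHNF4a, against 7.8 to 16.1 in siControl. In each arm both were highest at 0 h, but their mean signals, 14.6 for KLK5 and 13.2 for KLK7, lay just above the floor. KLK5 was at or under the floor on 3 arrays and KLK7 on 2. Both passed the filter on mean signal through their 0 h arrays, so nothing is read from 0 h being highest. The 6 had a median 24 h difference of -0.51, beside -0.03 over all genes tested. KLK4, KLK5 and KLK7 passed the filter on mean signal through 0 h arrays, which favours negative differences, so nothing is read from this median. KLK4 read 43.6 on the siControl 0 h array and at most 11.1 on the other 5.

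Of 14 listed binding partners of S100 proteins, 9 lay above the floor, and at 24 h 2 rose, 1 fell and 6 did not pass (median 0.03), beside the 7.22% and 7.82% of all genes tested that rose and fell. PLAT, the tissue plasminogen activator that S100A10 binds at the cell surface, rose by 1.25 ± 0.33 (limma adjusted p = 0.0185). It read 18.0, 24.6 and 59.0 in siHNF4a, against 25.6, 20.2 and 44.5 in siControl. IQGAP1, a scaffold that binds S100P, rose by 0.56 ± 0.14 (0.014), and CACYBP, named for its binding of S100A6, fell by 0.45 ± 0.12 (0.0196). CACYBP had 0.17 without the less specific _x_at and _s_at probe sets, and the calls of IQGAP1 (0.60) and CACYBP (-0.38) were lost without the siControl 0 h array. Both were also lost with averaged probe sets (0.46 and -0.275). Without the filter on mean signal or without the intensity trend, PLAT, IQGAP1 and CACYBP did not pass.

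With the siRNA 1 of the 9 rose, 1 fell and 7 did not pass (median -0.02), beside 3.9% and 4.16% of all genes tested. ANXA2, whose protein forms a complex with S100A10, read 1026.8, 1203.5 and 1055.6 in siHNF4a, against 1321.8, 1361.7 and 1718.2 in siControl, and fell by 0.42 ± 0.11 (limma adjusted p = 0.0296). EZR, which encodes the membrane linker ezrin that S100P activates, read 637.5, 693.4 and 658.2 in siHNF4a, against 455.7, 506.7 and 458.9 in siControl, and rose by 0.49 ± 0.11 (adjusted p = 0.0134). S100A10 and S100P differed in the same directions, while their other partners named above, PLAT (0.06) and IQGAP1 (-0.08), did not pass. AHNAK (-0.02), also on the list, did not pass either, and a link between partners was not tested. The ANXA2 and EZR calls were each lost under 5 alternatives. Among these were leaving out the 24 h pair (-0.27 and 0.47) and averaged probe sets (-0.32 and 0.42). ANXA2 also did not pass with arrays scaled to the same median (-0.37). AGER, the receptor RAGE through which extracellular S100 proteins signal, read 5.4 to 15.7 and had no mean above the floor. The same held for FGF1 and SYT1, S100A13's partners in export, and for PADI3, the enzyme that modifies S100A3. It also held for ANXA1, S100A11's partner, which read 17.1, 17.2 and 15.8 in siHNF4a and 13.2, 1.0 and 5.4 in siControl.

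Of the kallikrein substrates and inhibitors, 3 of 6 lay above the floor. F2R, the thrombin receptor PAR1 and a reported KLK6 substrate, rose at 24 h by 1.03 ± 0.26 (limma adjusted p = 0.0163). It read 110.3, 170.5 and 273.7 in siHNF4a, against 102.1, 63.0 and 171.6 in siControl, but had -0.11 at 24 h without the _x_at and _s_at probe sets. F2R also rose with the siRNA, by 0.74 ± 0.22 (0.0481), but this call was lost under 8 alternatives. Among them were quantile normalization (0.77), averaged probe sets (0.47), no _x_at and _s_at probe sets (0.19), and dropping the 1.5 h arrays (0.39) or the 24 h arrays (0.77). SERPINA5, the protein C inhibitor that also inhibits kallikreins, rose at 24 h by 1.08 ± 0.13 (5.49e-05). SERPINC1, antithrombin, fell at 24 h by 0.85 ± 0.17 (0.00359) and with the siRNA by 1.02 ± 0.14 (0.000351). Its 24 h call was lost with averaged probe sets (-0.76), and both its calls without the filter on mean signal or without the intensity trend. The SERPINA5 call was also lost without the filter. At 1.5 h none of the 20 tested genes in these lists of other S100 genes, kallikreins, partners and substrates passed in limma, and 1 had an unadjusted p under 0.05. Of all genes tested, 0.0839% rose and 0.0168% fell at that time.

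Genes with the most similar courses were sought by Pearson correlation of log2 signal over the 6 arrays, among 3261 genes that spanned at least 2-fold and were at the floor on at most 3 arrays. The 6 points share 2 dominant 24 h arrays, so many genes reach high values: between 3 (S100A14) and 153 (S100A16) had r of at least 0.95. For S100A3 the nearest were TAGLN (r = 0.996), RGS10 (0.996) and SERPINE2 (0.996). For KLK6 they were MBNL2 (0.998), RNF146 (0.998) and HBEGF (0.994), and for S100A2 AMPD3 (0.998), ITGA2 (0.995) and TNFRSF12A (0.995). S100A6 and S100A11 were among the 3 nearest of each other (0.995), beside NT5E (0.996) and USP53 (0.996) for S100A6 and SMIM3 (0.995) and TGFB1I1 (0.995) for S100A11. S100A16 ran closest to PGM2L1 (0.998), FHL2 (0.996) and NGFR (0.995). S100A13 ran closest to SAMTOR (0.986), IGBP1 (0.984) and SOCS4 (0.983), and S100A14 to PPP1R14D (0.983), RPS6KA2 (0.978) and FAM222B (0.951). Within the group, S100A3, S100A6, S100A11 and KLK6 correlated with each other at 0.969 to 0.995, and S100P with S100A10 at -0.485, over arrays that they share.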

How the data were processed

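The deposited table holds MAS5 signals, intensities on a linear scale which came from MAS5 5.0 in the authors' hands, with GCOS also named, per the submitters' processing notes. Each array had a trimmed mean of 100. Detection calls, probe-level files and the genome build of the probes are not given in the sources used here. Of 54675 probe sets, 41091 had 1 gene symbol in the platform annotation, 1801 several and 11777 none. Signals were used with no further scaling. The floor was 12.9, the median of all signals, and the 11921 genes with a mean above it were tested.

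limma 3.58.1 in R 4.3.3 (lmFit, eBayes with an intensity trend) fitted siRNA and time as terms over the 6 arrays, with 2 residual and 12.6 prior degrees of freedom, Benjamini-Hochberg adjustment and a threshold of 0.05. The residual is the disagreement between times or arms, and the labels do not say whether arrays came from separate cultures, so p-values measure only that spread. The fit was tested on simulated data with 200 genes changed. A 2-fold difference between single arrays was counted without a test. The members and all gene lists were chosen with earlier results of these data known. Named were every member, up to 4 genes of a list with the largest differences, and the 3 genes most like each member that spanned 2-fold; other list genes were named after their values were seen. F2RL1, SPINK5, TP63, CD68 and a few other listed genes were not analysed here. Tables and figures used Python 3.11.15 and pandas 2.3.3. Also tried were scaling to the median, quantile normalization, other floors, a pseudocount, other choices of probe set, no filter, no intensity trend and leaving out arrays.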

Additional observations from a re-analysis of the deposited data

Results flagged for a closer look

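At 1.5 h against 0 h, 3 members had differences of opposite sign in the siRNA arms, with 1 array on each side and no test of the difference. S100A13 was 0.64 higher (log2) in siHNF4a and 0.18 lower in siControl, a gap of 0.82. The siHNF4a 0 h array read 300.2 for it, against 450.5 to 890.9 on the other 5 arrays. For S100P (0.10 and -0.01, a gap of 0.11) and S100A11 (0.02 and -0.02, a gap of 0.035) both sides were close to 0.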

How the results depend on the processing

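The members at 2-fold between 24 h and 0 h numbered 5 to 7 in siHNF4a and 4 to 5 in siControl under all alternatives run, and 0 between the siRNAs and at 1.5 h. Of 210 member values recomputed (mean 24 h difference, mean siRNA difference, gap between arms), 202 moved by less than the residual SD and 8 by more. Of those 8, S100A13's gap between arms changed sign, at -0.17 with probe sets averaged. Many of the 210 could not move. No member lay at the floor or used an _x_at or _s_at probe set, so a lower floor or leaving such probe sets out changed nothing. Averaging could change only S100A6, S100A10 and S100A13, which have a second probe set. The same limit holds for the counts at 2-fold, so neither count measures robustness. The genes called over the whole table depended more on the settings. At 24 h 1793 were called, or 806 with the mean of probe sets, 1 without the filter and 457 without the intensity trend. For the siRNA 961 were called, or 227, 0 and 45 under the same settings, 578 if the 1.5 h pair was left out and 242 if the 24 h pair was. At 1.5 h 12 were called, or 0 under each of those 3 settings and 26 without the siControl 0 h array. The calls of genes outside the group rest on limma's trend and filter: of 670 recomputed values, 623 kept their side of the threshold, 41 lost and 4 gained a call, and 2 reversed, CACYBP (0.17) and F2R (-0.11) at 24 h without probe sets ending in _x_at or _s_at. The cause was not tested. Without the siControl 0 h array ANXA11 passed at 24 h (-0.62). EZR had 1.49 at 24 h and passed without probe sets ending in _x_at or _s_at. One array per group limits the precision of every value. Genes near the floor, S100A14 and KLK6 at 0 h among them, are the least precise.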
